A study of Mus musculus with 17 samples.

Results

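The metabotropic glutamate receptor genes Grm5, Grm2, Grm3, Grm4, Grm7 and Grm8 were followed through the aging mouse hippocampus. They were chosen by name, with earlier results of these data known, and are 6 of the 38355 genes with a count in each library. Other genes of the receptor family were not analysed here. RNA came from hand-dissected hippocampi of untreated wild type C57BL/6J mice, in 2 separate experiments. The single-end experiment held 5 libraries from mice aged 3 months (3M) and 6 from mice aged 24 months (24M). The paired-end experiment held 3 libraries at 3M and 3 at 29 months (29M). By the methods of the study, its oldest mice were obtained at 24 months and kept in house from then on. Aged mice were compared with the 3M mice of the same experiment. At both ages none of the 6 genes passed the thresholds for a change. The means of 5 genes were lower than at 3M in both aged groups, and that of Grm5 was higher at 24M and lower at 29M. The log2 difference was largest for Grm4 at 24M and for Grm8 at 29M.

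Metabotropic glutamate receptors are G protein-coupled receptors that tune synaptic transmission, in contrast to the ion channels that carry it. Group I receptors, here mGlu5, couple to Gq, sit mostly on the postsynaptic side around the postsynaptic density and are tied to Homer and Shank scaffolds. Group II receptors (mGlu2 and mGlu3) and group III receptors (mGlu4, mGlu7 and mGlu8) couple to Gi/o and mostly restrain transmitter release, while mGlu3 is also made by astrocytes. In the hippocampus, mGlu5 takes part in several forms of long-term depression and potentiation, and mGlu2 is known from the mossy fiber pathway of dentate granule cells.

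Promoter windows were at hand for 4 of the 6 genes, from 250 bases before to 50 bases after an annotated start. Those of the group II genes are shown because, of these 4 genes, they were the pair with an unadjusted p under 0.05 (edgeR) at both ages. The study had scanned windows of this size and named the E2F, SP and EGR families for genes that were lower with age, so letters of these families were searched on both strands. Both sequences are from RefSeq on GRCm38.p6, minus strand, at chr9:106656060-106656359 for Grm2 and chr5:9725303-9725602 for Grm3. Capitals mark the GC box GGGCGG.
Grm2: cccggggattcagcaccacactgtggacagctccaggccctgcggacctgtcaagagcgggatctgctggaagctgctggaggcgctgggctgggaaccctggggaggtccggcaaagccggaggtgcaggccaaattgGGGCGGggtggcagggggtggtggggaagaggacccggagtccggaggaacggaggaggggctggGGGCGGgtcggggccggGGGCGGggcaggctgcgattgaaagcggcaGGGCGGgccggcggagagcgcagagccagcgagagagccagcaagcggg
Grm3: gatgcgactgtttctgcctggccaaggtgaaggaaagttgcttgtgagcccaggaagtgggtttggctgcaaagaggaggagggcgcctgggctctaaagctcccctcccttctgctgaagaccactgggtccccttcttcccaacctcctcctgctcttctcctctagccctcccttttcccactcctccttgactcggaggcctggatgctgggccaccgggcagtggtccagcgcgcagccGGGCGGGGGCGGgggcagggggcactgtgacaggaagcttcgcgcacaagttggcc
The Grm2 window held 4 GC boxes and 22 CpG dinucleotides, and the Grm3 window held 2 GC boxes and 11 CpGs. Of 32851 windows in the table, 35.7% held a GC box, and the median number of CpGs was 7. An EGR match (GCGTGGGCG or GCGGGGGCG) lay once in the Grm3 window, where it overlaps both GC boxes, and in 3.5% of all windows. The E2F letters TTTCGCGC and TTTGGCGC, found in 0.8% of all windows, were in neither. Both Grm7 windows and 1 of 3 Grm8 windows held 1 GC box each, and none held an EGR or E2F match. These matches describe the letters only.

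Depth, as reads assigned to genes, ran from 19144461 to 28438296 per library at 3M and from 9213474 to 19756411 at 24M in the single-end experiment. In the paired-end experiment it ran from 10977976 to 15054972 at 3M and from 10991389 to 13563541 at 29M. In the noise check of 136 pairs of libraries, 24M replicates 1 and 4 differed by less than counting noise (ratio of observed to binomial variance 0.406, with 1.23 in the next lowest pair), so their rounded mean was counted as 1 sample and the 24M group as 5. Markers of dentate granule, CA1 and CA3 cells were present in all libraries, and none of these lists had a gene at 0 throughout. Of 8 markers of striatum, a neighbouring tissue, the summed level was 514 CPM (counts scaled by library size) in 3M single-end replicate 4 and 190 to 250 in the other 3M single-end libraries. It was 204 to 229 at 24M, and 219 to 243 in the paired-end libraries. All values below are CPM after TMM normalization over the 17 libraries. Nothing in the labels says that replicates are separate animals, so p-values measure the spread between these samples.

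Grm5 was the most abundant of the 6 transcripts per exon length. Across 16 samples its median was 32.2 CPM per kilobase of exon (range 27.1 to 38.9). Grm3 followed with 20.8 (18.1 to 24.7), Grm2 with 13.1 (11.1 to 18.2) and Grm7 with 9.42 (8.61 to 11.3). Grm4, at 2.74 (1.64 to 3.83), and Grm8, at 1.26 (0.98 to 1.65), formed the low end. All 16 samples gave this order, although the ranges of Grm3 and Grm2, of Grm2 and Grm7, and of Grm4 and Grm8 overlapped between samples. The lengths are those of GENCODE M21, and no source at hand names the annotation on which reads were counted, so the spacing between genes depends on that choice.

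**Figure D1:**
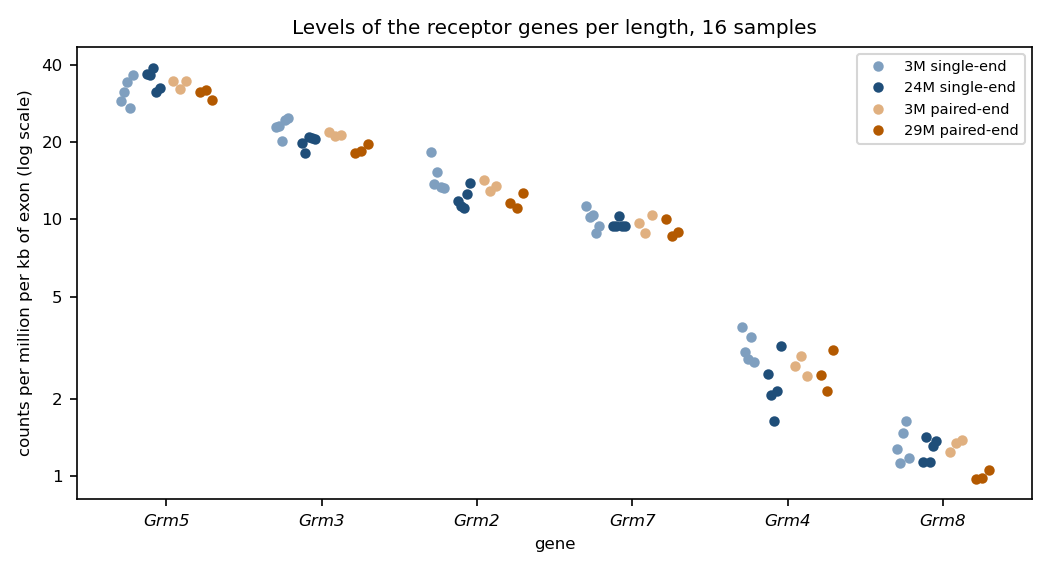
Level of each receptor gene in CPM per kilobase of exon (log axis), with 1 point per sample and colours for the 4 groups; horizontal offsets have no meaning. Grm5 lies above the other 5 genes in all 16 samples and Grm8 below them.

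Grm5, the group I receptor gene (ENSMUSG00000049583, chromosome 7 of GRCm38, 87584168 to 88134907), was measured at 295, 319.7, 349.7, 278 and 373 CPM in 3M single-end replicates 1 to 5. The 6 libraries at 24M ran from 322 to 401, with a median of 363. The groups overlapped, although all 24M samples lay above the 3M median. Means were 323 ± 38.7 CPM at 3M and 360.5 ± 32.5 CPM at 24M (SD, n = 5 and 5). In edgeR's quasi-likelihood fit the log2 fold change was 0.17 (standard error 0.08, 95% interval -0.0037 to 0.34), and the Benjamini-Hochberg adjusted p over 15683 genes was 0.20. The lowest 3M value belonged to replicate 4, the library with the high striatum markers, and the log2 fold change without it was 0.12. The part of those markers in the value was not tested.

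In the paired-end experiment Grm5 lay the other way. It was measured at 354, 328 and 355 CPM at 3M and 321, 327 and 298 CPM at 29M. The groups did not overlap, but the lowest 3M library and the highest 29M library were less than 1 CPM apart. This is a log2 fold change of -0.11 (standard error 0.04, 95% interval -0.21 to -0.02, adjusted p = 0.208, edgeR), and it was -0.072 without 29M replicate 3. In a fit of all 4 groups, the 29M effect was below the 24M effect by a log2 difference of -0.28 (95% interval -0.53 to -0.04, unadjusted p = 0.0264, adjusted p = 0.416, edgeR). That difference did not pass the threshold, and age and library type cannot be told apart in it.

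Group II receptor genes had lower means in both aged groups. Grm2 (ENSMUSG00000023192, chromosome 9, 106643095 to 106656082) was at 89.2, 67.2, 74.6, 65.5 and 64.5 CPM in 3M single-end replicates 1 to 5, and between 54.1 and 67.5 CPM at 24M with a median of 57.5. Replicate 1 was the highest at 3M, and 24M replicate 6 was the only aged sample above the 3M minimum. The means were 72.2 ± 10.3 and 59.1 ± 5.46 CPM (SD, n = 5 and 5). On the log2 scale Grm2 differed by -0.28 (standard error 0.09, 95% interval -0.47 to -0.09), which missed the threshold with an adjusted p of 0.0741 by edgeR. Without 3M replicate 1 the value was -0.20 (adjusted p = 0.146, edgeR), without 3M replicate 5 Grm2 passed the adjusted p with -0.33 (0.0309, edgeR), and over all alternatives the adjusted p ran from 0.0272 to 0.174.

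At 29M, Grm2 stood at 56.4, 54.2 and 62.2 CPM against 69.7, 63.3 and 66.0 CPM at 3M. All 29M libraries were below all 3M libraries, by a margin of about 1 CPM between the nearest. The fitted difference was -0.18 in log2 (standard error 0.06, 95% interval -0.31 to -0.05, adjusted p = 0.149, edgeR).

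Grm3 (ENSMUSG00000003974, chromosome 5, 9485541 to 9725170) was at 69.5, 70.3, 61.7, 74.4 and 75.4 CPM in 3M single-end replicates 1 to 5. At 24M it ran from 55.2 to 63.7 CPM, with a median of 61.5. Only 3M replicate 3 reached into the aged range, and all 5 samples at 24M were below the 3M median. Means were 70.25 ± 5.42 and 60.9 ± 3.43 CPM (SD, n = 5 and 5), and edgeR gave a log2 difference of -0.20 (standard error 0.06, 95% interval -0.33 to -0.06, adjusted p = 0.0824). Without 3M replicate 3 it was -0.24, which passed the adjusted p (0.0368, edgeR), and without 24M replicate 2 it was -0.16 (0.20, edgeR). Of 11 fits that leave out 1 library, 1 passed the adjusted p. Over all alternatives the adjusted p of Grm3 at 24M ran from 0.0276 to 0.20. In the paired-end libraries Grm3 was at 66.8, 64.2 and 65.0 CPM at 3M and at 55.2, 56.1 and 59.8 CPM at 29M. These groups did not overlap. In edgeR the difference was -0.18 in log2 (standard error 0.05, 95% interval -0.29 to -0.06, adjusted p = 0.10). For both genes at both ages the interval excludes a fall of 0.5 on the log2 scale, the fold threshold.

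The cell types that make these receptors were checked beside them. Of 9 astrocyte markers none was called lower at 24M or 29M and Gfap was called higher, and their summed level was 6117 to 6682 CPM at 3M, 6555 to 7024 at 24M, 5843 to 5989 in the paired-end 3M group and 6263 to 6315 at 29M. None of 7 dentate granule cell markers was called at either age, with sums of 502 to 636 and 596 to 692 CPM in the single-end and 568 to 593 and 564 to 573 CPM in the paired-end groups. Other lists had lower or higher sums with age. The 5 CA1 markers used summed to 708 to 905 CPM at 3M and 703 to 744 at 24M, and to 728 to 824 and 670.2 to 745 CPM in the paired-end groups. Of these, 1 passed the adjusted p as lower at 29M, and none was called at either age. At 24M, 1 of 6 CA3 markers was called higher and 1 of 6 endothelial markers lower, and at 29M none of them was called. The 6 markers of oligodendrocyte precursors summed to 325 to 354 CPM at 3M and 274 to 338 at 24M, and to 295 to 308 CPM at 3M and 251 to 273 at 29M in the paired-end libraries, with Gpr17 called lower at each age. The 8 neocortex markers summed to 418 to 481 CPM at 3M and 368 to 418 at 24M (Cux2 and Lamp5 called lower), and to 361 to 389 and 349 to 368 CPM in the paired-end groups. The 7 microglia markers were higher, at 345 to 392 and 430.3 to 463 CPM in the single-end and 338 to 347 and 434 to 455 CPM in the paired-end groups, with C1qa and P2ry12 called higher at 24M and C1qa and Tmem119 at 29M. The 8 interneuron markers summed to 1173 to 1305 CPM at 3M and 1130 to 1260 at 24M. Of these, 2 passed the adjusted p as lower at 24M, and none was called at either age. In the paired-end groups their sums were 1135 to 1188 CPM at 3M and 1071 to 1129 at 29M. The part of these lists in the receptor values was not tested. In bulk tissue, fewer cells of a type and less RNA per cell cannot be told apart.

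**Figure D2:**
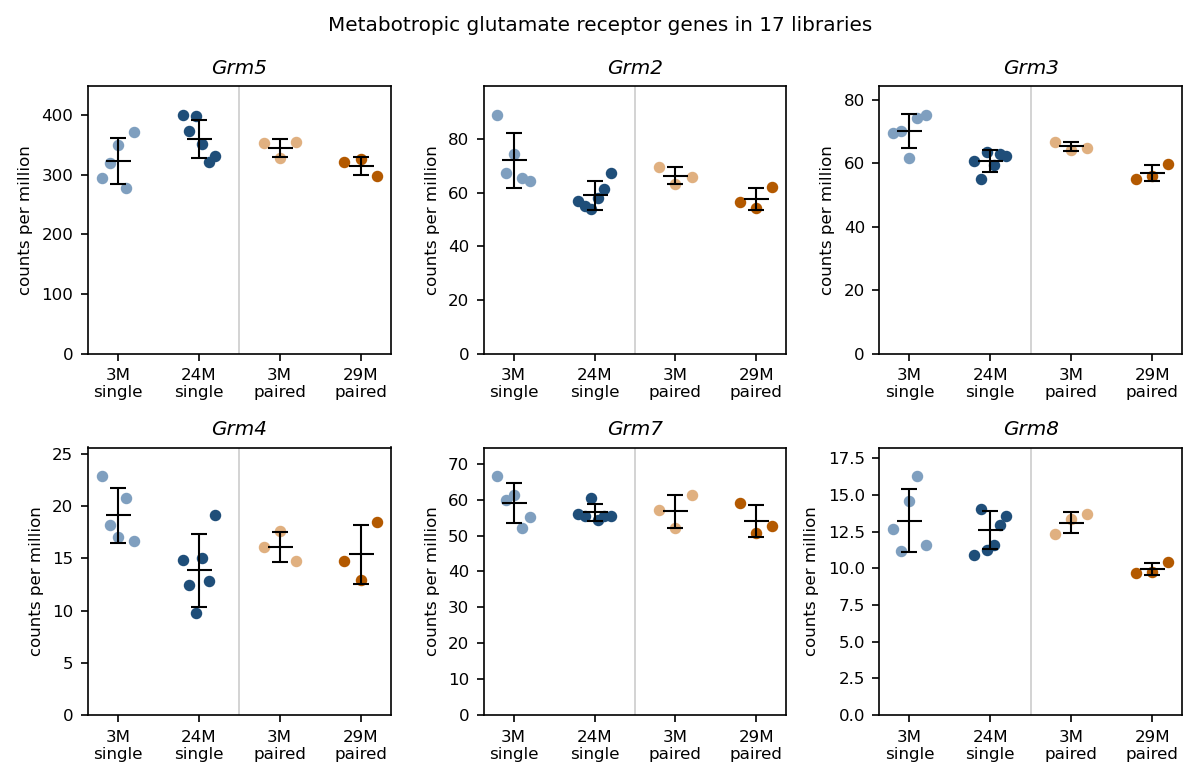
CPM of the 6 receptor genes in each of the 17 libraries (points; horizontal offsets have no meaning), with the mean and SD of each group in black, where 24M replicates 1 and 4 count as 1 sample. Among the lower means are those of Grm2 and Grm3 in both aged groups, Grm4 at 24M, and Grm5 and Grm8 at 29M. The single-end groups overlap for all 6 genes, and no gene passed the adjusted p as reported. The vertical line parts the experiments.

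Among the group III genes, Grm4 had the largest difference at 24M. Grm4 (ENSMUSG00000063239, chromosome 17, 27422387 to 27521403) was at 22.9, 18.2, 17.04, 20.8 and 16.7 CPM in 3M single-end replicates 1 to 5 and between 9.78 and 19.2 CPM at 24M, with a median of 13.9. All 24M samples but replicate 6 lay below all 3M samples. The means were 19.1 ± 2.65 and 13.8 ± 3.51 CPM (SD, n = 5 and 5), from 166 to 502 counts per library. Its log2 difference was -0.48 (standard error 0.15, 95% interval -0.80 to -0.16, adjusted p = 0.072, edgeR). Grm4 passed both thresholds without 24M replicate 6, with -0.61 (adjusted p = 0.0311, edgeR), and without 3M replicate 5, with -0.53 (adjusted p = 0.0362, edgeR). The difference was smaller without 24M replicate 3, the lowest library (-0.38, adjusted p = 0.14, edgeR). Without 3M replicate 1, the highest library, it was -0.41 (adjusted p = 0.163, edgeR). Of 11 fits that leave out 1 library, 2 passed the adjusted p. Over all alternatives the adjusted p of Grm4 at 24M ran from 0.0116 to 0.165.

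The 24M library with the high Grm4 value was also the highest in thalamus markers. The sum of 8 such markers was 287 CPM in 24M replicate 6 and 161 to 197 CPM in the other 24M libraries, against 146 to 277 CPM at 3M, and no marker of the list was at 0 throughout. At 3M the library with the highest sum, replicate 5, had the lowest Grm4 value. The part of these markers in the Grm4 value was not tested. In the paired-end experiment Grm4 was at 16.1, 17.6 and 14.7 CPM at 3M and 14.8, 12.9 and 18.5 CPM at 29M, and the groups overlapped. There its log2 fold change was -0.04 (95% interval -0.31 to 0.22, adjusted p = 0.896, edgeR), and the difference between the ages was 0.43 (95% interval -0.07 to 0.93, adjusted p = 0.532, edgeR), and 0.27 without 29M replicate 3. With single libraries left out, the 29M value of Grm4 itself ran from -0.21 (without 29M replicate 3) to 0.062 (without 29M replicate 2).

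Grm7, a presynaptic receptor of low glutamate affinity, showed the smallest differences at 24M. Grm7 (ENSMUSG00000056755, chromosome 6, 110645581 to 111567230) was between 52.2 and 66.5 CPM at 3M and between 54.4 and 60.6 CPM at 24M in the single-end libraries, with overlapping groups. In the paired-end libraries it was at 57.1, 52.0 and 61.3 CPM at 3M and at 59.1, 50.7 and 52.6 CPM at 29M. Grm7 differed in log2 by -0.05 (95% interval -0.19 to 0.08, adjusted p = 0.615, edgeR) and -0.05 (95% interval -0.20 to 0.11, adjusted p = 0.801, edgeR). With single libraries left out the values ran from -0.093 to -0.010 and from -0.12 to 0.012. At each age the reported interval excludes a change of 0.5 in either direction. The antisense gene Gm20387 overlaps exons of Grm7, and no source used here states that counting used strand, so their reads cannot be told apart. The 587 counts of Gm20387 over all 17 libraries are few beside those of Grm7, but do not show how many reads lay in the shared exons. The antisense gene Gm28111 likewise overlaps exons of Grm2 and has no count of its own. Any reads from it cannot be told apart from those of Grm2.

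Grm8 (ENSMUSG00000024211, chromosome 6, 27275119 to 28135178) was the lowest of the 6 and had its difference at 29M. In 3M single-end replicates 1 to 5 it was at 12.7, 11.2, 14.6, 16.3 and 11.6 CPM, and at 24M it ran from 10.9 to 14.1 CPM with a median of 12.3. The groups overlapped, and the highest value was in 3M replicate 4, where Grm5 had its lowest. This gave a log2 difference of -0.07 (95% interval -0.31 to 0.18, adjusted p = 0.746, edgeR), and 0.020 without that library. At 29M Grm8 was at 9.70, 9.73 and 10.4 CPM, below the 12.3, 13.3 and 13.7 CPM of the 3M paired-end libraries. The log2 difference was -0.38 (standard error 0.10, 95% interval -0.59 to -0.17), from 102 to 201 counts per library, and its adjusted p of 0.0576 by edgeR was the smallest of the members at either age. It missed the threshold, and over all alternatives the adjusted p ran from 0.0206 to 0.371. The 29M effect differed from the 24M effect by -0.31 (95% interval -0.68 to 0.05, adjusted p = 0.532, edgeR).

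**Figure D3:**
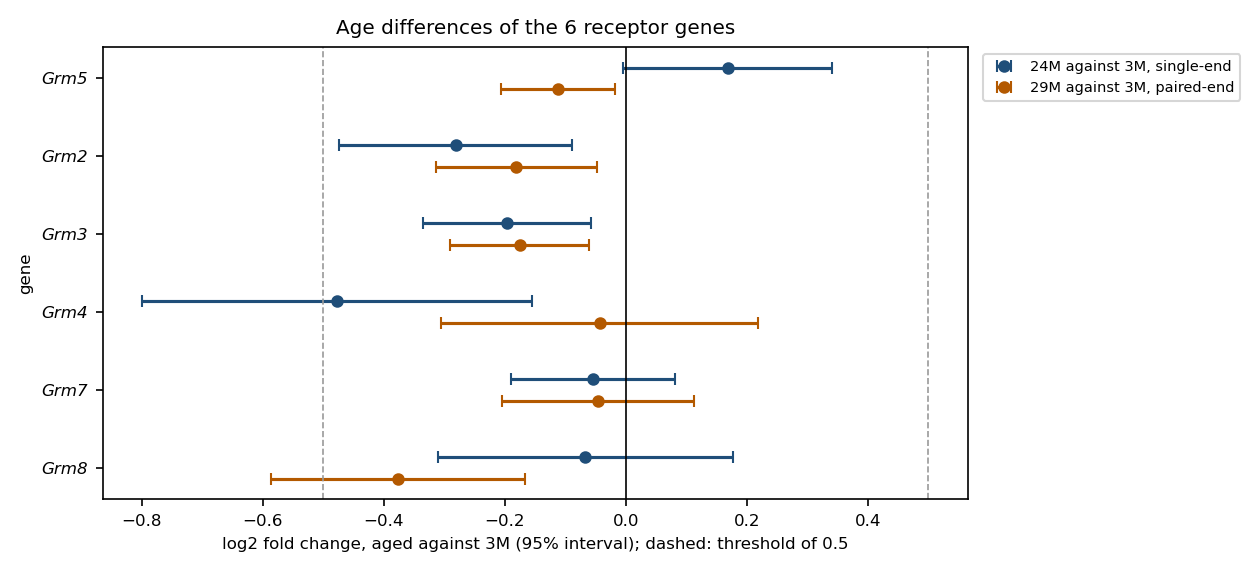
Log2 fold change of each receptor gene in the aged group against its own 3M group, with 95% intervals from edgeR, at 24M (blue, n = 5 and 5) and at 29M (orange, n = 3 and 3). All estimates lie within the dashed lines at 0.5, and the intervals of Grm4 at 24M and Grm8 at 29M cross the lower line.

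Counts over the 6 genes depended on the threshold. Calls followed the thresholds of the study, 0.05 for the adjusted p and 0.5 in either direction for the log2 fold change. At 24M, 0 of 6 members were called against 1.98% of all genes tested, and at 29M 0 of 6 against 1.45%. At the adjusted p alone the counts were again 0 of 6, against 5.58% and 2.99%. An unadjusted p under 0.05 was reached by 3 members at 24M (Grm2, Grm3 and Grm4, all lower), where 26.1% of all genes reached it and 12.1% did so as lower, and by 4 at 29M (Grm5, Grm2, Grm3 and Grm8, all lower), against 17.3% and 7.48%. DESeq2 gave adjusted p-values under 0.05 for Grm2 (0.0392) and Grm4 (0.0294) at 24M and for no member at 29M. All 29M libraries lay below all 3M libraries for the same 4 genes, as they did for 14.0% of all genes tested, while at 24M no member was free of overlap (3.93% of all genes were in the lower and 2.79% in the higher direction). The median log2 fold change of the members was -0.13 at 24M and -0.14 at 29M, with 5 and 6 of the 6 below 0. Over all genes tested the medians were -0.0032 and -0.0021, with 50.8% and 50.6% of genes below 0.

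**Figure D4:**
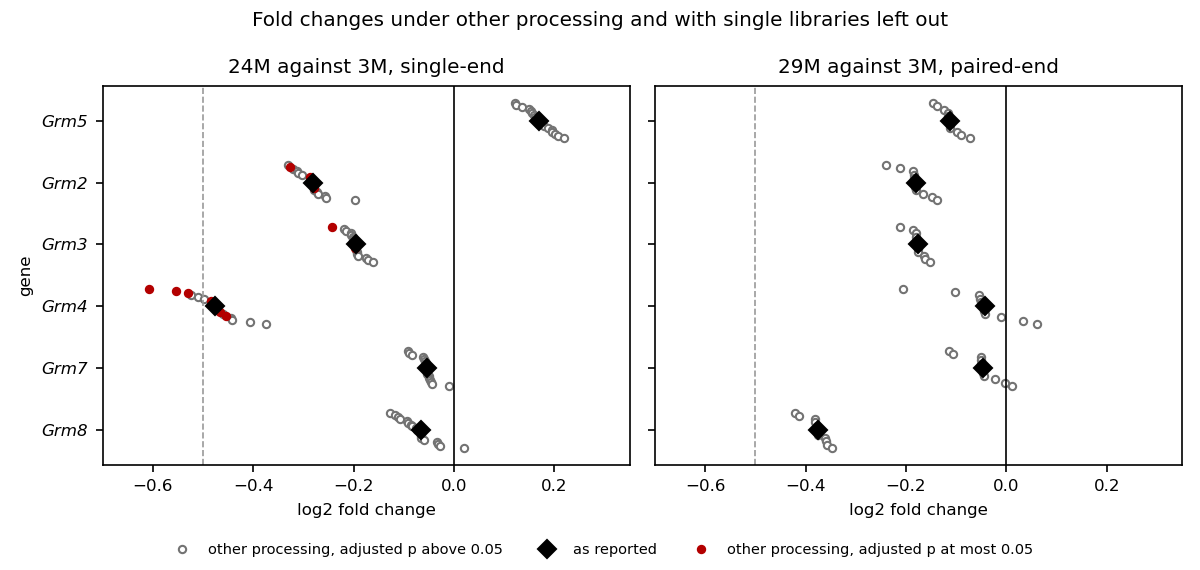
Log2 fold changes of the receptor genes as reported (black diamonds), under other processing and with single libraries left out (open circles, or red where the adjusted p was at most 0.05). At 24M, red points occur for Grm2, Grm3 and Grm4, and at 29M once for Grm8, without the filter on low counts.

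The share of the 3 receptor groups in the summed level per length of these 6 genes was also described. Grm5 made up 37.5% ± 3.58 of the sum at 3M and 43.7% ± 3.11 at 24M (SD, n = 5 and 5), with samples from 33.4% to 41.5% and from 40.2% to 46.4%. The group II genes held 45.1% ± 2.58 and 39.9% ± 2.58, and the group III genes 17.4% ± 1.36 and 16.4% ± 0.675. In the paired-end libraries the Grm5 share was 40.9% ± 0.463 at 3M and 41.6% ± 2.32 at 29M (SD, n = 3 and 3), and the group II share 42.5% ± 0.771 and 41.1% ± 1.94. The mean shares thus moved by more at 24M than at 29M, and in each case the samples of both ages overlapped. The 3M groups of the experiments themselves differed, with a mean group II share of 45.1% in the single-end and 42.5% in the paired-end libraries.

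Genes that act with the receptors were described in 7 lists of 73 genes, all of which were tested. At 24M, 2 were called higher and 1 lower, and 3 higher and 6 lower passed the adjusted p alone, and the median log2 value was -0.05. Of all genes, 1.34% were called higher and 0.638% lower at 24M, and 3.21% and 2.37% passed the adjusted p alone. At 29M, 0 of the 73 were called (1.34% of all genes were called higher) and 2 passed the adjusted p alone, both lower (0.662% of all genes did), with a median of -0.03. Together this is 12.3% and 2.74% of the 73 genes at the adjusted p alone, beside the 5.58% and 2.99% of all genes. The lists were chosen with earlier results of these data known, and some genes were left out of them. Their shares can therefore not be read against those of all genes. Several named genes changed sides with the processing. At 24M, Itpr1, Cnr1, Arrb1, Elfn1, Sept7 and Slc1a1 missed the adjusted p in the fit as reported and passed it by DESeq2 (0.0065 to 0.048) and in the edgeR fit of all 4 groups (0.0138 to 0.0252), and Folh1 passed the latter (0.0405). Cnr1 and Sept7 also passed with no filter on low counts. With the 24M pair left out, Arc, Shank1, Gnai1, Rgs4, Grk2 and Slc7a11 missed it. At 29M, Homer2, Rgs4, Grk5, Glul and Naalad2 passed with no filter on low counts, and Glul by DESeq2 (0.0249).

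Of 14 genes in the Gq arm of group I signalling, none passed at either age in the fit as reported. The smallest p at 24M were those of Cnr1, the cannabinoid receptor that mGlu5 engages through lipid messengers (log2 fold change 0.27, adjusted p = 0.0548, edgeR), and of Itpr1, a calcium release channel (-0.18, adjusted p = 0.0538, edgeR). Cnr1 passed without 3M replicate 3 or 5 or 24M replicate 4, and Itpr1 without 3M replicate 2 or 5. At 29M they were those of Plcb1, a phospholipase C (-0.09, adjusted p = 0.181, edgeR), and Dgkz, a diacylglycerol kinase (0.11, adjusted p = 0.19, edgeR).

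Of 10 scaffolds and partners of group I receptors, 2 fell at 24M. Arc, an immediate early gene whose protein takes part in AMPA receptor removal, was called at -1.27 in log2 (standard error 0.34, adjusted p = 0.0487, edgeR), from 147 ± 98.8 to 60.8 ± 6.94 CPM (SD, n = 5 and 5). The spread at 3M was large, and Arc missed the adjusted p in 7 of 11 fits that each leave out 1 library (3M replicates 3 and 4 and 24M replicates 1, 2, 3, 5 and 6). Without 3M replicate 4, the library with the high striatum markers, the log2 fold change was -0.80. In the other such fits it ran from -1.46 to -1.22. The part of those markers in the Arc value was not tested. Shank1, a postsynaptic scaffold, fell by 0.27 on the log2 scale (adjusted p = 0.0272, edgeR), and not past the threshold without 3M replicate 1 or 24M replicate 2 or 6. At 29M none of the 10 passed, and the smallest p belonged to Homer2, a scaffold of mGlu5 (-0.16, adjusted p = 0.0764, edgeR), and Shank3 (-0.07, adjusted p = 0.518, edgeR). Shank3 was -0.023 without 3M paired-end replicate 1, -0.045 without 29M replicate 3 and -0.13 without 3M paired-end replicate 3.

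The Gi/o arm of group II and III signalling had 16 of 20 genes below 0 at 24M and 16 of 20 at 29M. Of all genes, 50.8% and 50.6% were below 0. The list medians were -0.11 and -0.05. The partners of group III receptors had 7 of 9 and 6 of 9 below 0, and receptor desensitisation 6 of 8 at each age. Glutamate handling had 2 of 8 and 1 of 8. The lists were chosen with earlier results known, so these counts cannot be read against all genes. At 24M, 3 fell and 1 rose by the adjusted p, and none was called. Kcnj9, a G protein-gated potassium channel subunit, had a log2 value of -0.33 (standard error 0.06, adjusted p = 0.00894, edgeR), from 104 ± 7.21 to 81.7 ± 4.76 CPM (SD, n = 5 and 5), and passed in all 11 fits that leave out 1 library. Rgs4, which shortens G protein signals, had -0.39 (adjusted p = 0.0217, edgeR) and missed the threshold without 24M replicate 2. Adcy8, a calcium-stimulated adenylyl cyclase, had -0.47 (adjusted p = 0.0263, edgeR) and missed it without 3M replicate 1 or 24M replicate 2. Gnai1, an inhibitory G protein subunit, had 0.30 (adjusted p = 0.0413, edgeR) and passed in 3 of the 11 such fits, those without 3M replicate 5 or 24M replicate 4 or 5. At 29M none of the 20 passed, and Rgs4 (-0.18, adjusted p = 0.0621, edgeR) and Gnaz (-0.14, adjusted p = 0.139, edgeR) had the smallest p, where Rgs4 passed without 3M paired-end replicate 2 (-0.23, adjusted p = 0.0117, edgeR).

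Of 9 partners of group III receptors, Elfn1 fell at 29M. Elfn1 is a postsynaptic adhesion protein that recruits mGlu7 to the opposite terminal. It was at 37.8 ± 2.31 CPM at 3M and 29.7 ± 1.18 CPM at 29M (SD, n = 3 and 3), or -0.33 in log2 (standard error 0.07, adjusted p = 0.0182, edgeR). It missed the threshold without 3M paired-end replicate 2 or 29M replicate 2 or 3, and in the fit of all 4 groups (adjusted p = 0.0689, edgeR). At 24M it had -0.22 (adjusted p = 0.0637, edgeR), which passed without 3M replicate 5 (-0.24, adjusted p = 0.0332, edgeR), and Sept7, a septin, had 0.33 (adjusted p = 0.0564, edgeR), which passed without 3M replicate 5 or 24M replicate 4 or 5. Grip1, a PDZ scaffold, had -0.23 at 29M (adjusted p = 0.145, edgeR).

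Of 8 genes for receptor desensitisation, Grk2, a receptor kinase, fell by 0.21 on the log2 scale at 24M (adjusted p = 0.0455, edgeR). It passed in only 3 of 11 fits that leave out 1 library, those without 3M replicate 5 or 24M replicate 4 or 5. Arrb1, an arrestin, had -0.15 (adjusted p = 0.0525, edgeR), which passed without 3M replicate 5 or 24M replicate 4. At 29M the smallest p belonged to Grk5 (-0.49, adjusted p = 0.115, edgeR) and Grk3 (0.11, adjusted p = 0.237, edgeR). Without 3M paired-end replicate 2 they were -0.28 and 0.071.

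Supply and removal of the ligands were covered by 8 genes of glutamate handling and 4 of the peptide NAAG, an agonist of mGlu3. At 24M Slc7a11, the cystine-glutamate exchanger, was called higher by 0.58 in log2 (standard error 0.13, adjusted p = 0.0245, edgeR), from 53.8 ± 9.93 to 80.01 ± 11.3 CPM (SD, n = 5 and 5). It missed the adjusted p without 3M replicate 1 or 24M replicate 2 or 6, and the fold threshold without 3M replicate 4 (0.48). Slc1a1, a neuronal glutamate transporter, had 0.20 (adjusted p = 0.0612, edgeR) and passed without 3M replicate 5 (0.22, adjusted p = 0.0295, edgeR). At 29M Slc17a6, a vesicular transporter that is also in the thalamus marker list, fell by 0.46 (adjusted p = 0.014, edgeR). The sum of that list was 170 to 250.2 CPM in the 3M and 166 to 182 CPM in the 29M libraries, and Slc17a6 missed the threshold without 29M replicate 1 or 2 and in the fit of all 4 groups (adjusted p = 0.478, edgeR). Glul, the glutamine synthetase, had 0.13 at 29M (adjusted p = 0.141, edgeR).

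Naalad2, which encodes a peptidase of the family that cleaves NAAG, was called higher at 24M. It was at 1.82 ± 0.389 CPM at 3M and 3.87 ± 0.634 CPM at 24M (SD, n = 5 and 5), or 1.10 in log2 (standard error 0.17, adjusted p = 0.00526, edgeR), and passed in all 11 fits that leave out 1 library. At 29M its log2 fold change was 1.17 (adjusted p = 0.0716, edgeR), which missed the threshold but passed without 3M paired-end replicate 1 (1.72, adjusted p = 0.0074, edgeR). Folh1, the main NAAG peptidase of brain, had 0.38 at 24M (adjusted p = 0.097, edgeR), which passed without 3M replicate 4, and Rimklb, a NAAG synthetase, had -0.20 at 29M (adjusted p = 0.117, edgeR).

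**Figure D5:**
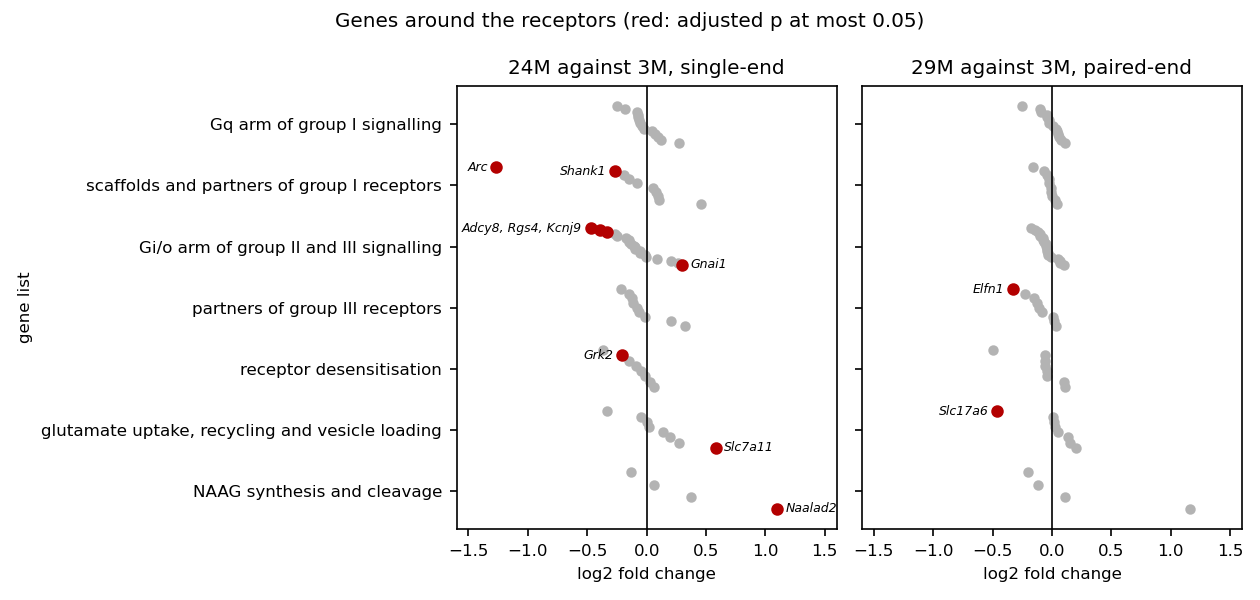
Log2 fold changes of the 73 genes around the receptors in 7 lists, at 24M (left) and 29M (right), with genes at an adjusted p of at most 0.05 in red and named. The red points are 9 at 24M and 2 at 29M.

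To find the genes whose levels moved most like each receptor gene from sample to sample, log2 CPM was centred on each group and correlated over 16 samples with 11858 other genes. The closest to Grm5 were Dgkb (r = 0.96) and Mmd (0.96), to Grm2 Lrp3 (0.95) and Map6 (0.92), to Grm3 Pdzd2 (0.86) and Atp2b2 (0.81). The closest to Grm4 were Il17d (0.91) and Lzts2 (0.91), to Grm7 Sfswap (0.91) and Zfp513 (0.88), and to Grm8 Itfg2 (0.85) and Phb (0.84). These values describe the maximum over many genes in the same libraries, and no p-value is given. No receptor gene was among the 2 closest genes of another.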

How the data were processed

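Per the labels and the methods of the study, polyA RNA was made into TruSeq libraries, aligned with STAR 2.3.0 to GRCm38.p2 and counted per gene with HTSeq. The authors deposited raw counts, 1 file per library, for 38355 Ensembl identifiers. Of these, 36602 were named from GENCODE M21. Lines naming no gene stayed out, of which reads without a feature were 11.2% to 18.2% of uniquely placed reads. Each aged group was compared with its own 3M group in edgeR 4.0.16 (quasi-likelihood, TMM, default filter, R 4.3.3), and p-values were adjusted over all genes tested. The standard error of a log2 difference was taken as its size over the square root of F. DESeq2 1.42.0, other filters and scalings, 1 fit of all groups, the replicate block and single libraries left out were alternatives, and steps were tested on simulated data. Intervals cover 95%. The members and lists were chosen with earlier results of these data known. All members are named, and in each list and comparison the genes that passed or had the 2 smallest p. The count per library limits precision for genes under a few CPM. Some genes were left out of the lists, also from the counts of calls, and are not reported here.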

Additional observations from a re-analysis of the deposited data

Results flagged for a closer look

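In the 24M group, Grm7 in replicate 3 (60.6 CPM) stood apart from the other samples, which lay close together, with a gap of 0.95 of the whole range of the group. Of 12 groups of 5 samples checked in this way, 1 stood out, where chance gives about 0.6. In 24M replicate 3, 17.3% of uniquely placed reads lacked a feature, against 13.2% to 14.2% in the other 24M libraries. That library also had the lowest Grm2 and Grm4 values of its group. At 29M, 18.2% of uniquely placed reads lacked a feature in replicate 2, against 13.4% and 14.3% in the other libraries. Grm2, Grm4 and Grm7 were lowest of the 29M group in that replicate. Grm7 was thus highest of its group in 24M replicate 3 and lowest in 29M replicate 2. The part of reads without a feature in these values was not tested.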

How the results depend on the processing

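At 24M, 0 members were called as reported, 0 to 1 with single libraries left out and 1 with the replicate block (Grm4). At the adjusted p alone 0 to 2 members passed with single libraries left out, 2 by DESeq2, 3 with all groups in 1 fit, 3 with the 24M pair kept apart, and 1 with no filter or the replicate block. At 29M the count was 1 with no filter on low counts. Without single libraries, Grm8 at 24M ran from -0.13 to 0.020, Grm4 at 29M from -0.21 to 0.062 and Grm7 at 29M from -0.12 to 0.012. The difference between the ages ran from -0.071 to 0.054 for Grm7 and -0.024 to 0.065 for Grm3, and for Grm7 it was -0.00029 by DESeq2 and -0.0013 with no filter. No other member changed direction under the alternatives run.

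Over all genes, the 310 called at 24M became 119 to 568 without single libraries, 518 with all groups in 1 fit and 163 with the pair left out. The 875 at the adjusted p alone became 177 to 2431, 2260 and 276, and 1581 by DESeq2, 1722 with the pair kept apart and 471 with the replicate block. The 219 called at 29M became 124 to 221 without single libraries, 441 with no filter and 86 with all groups in 1 fit, and the 451 at the adjusted p alone became 198 to 408, 1088 and 102. For the difference between the ages, 0 genes passed as reported (1674 at an unadjusted p under 0.05, and 0 by DESeq2 at both thresholds). Without single libraries 0 to 57 passed both thresholds and 0 to 92 the adjusted p alone, the highest without 3M single-end replicate 5. The causes were not tested. Same-numbered samples showed little shared deviation over the genes tested (r from -0.22 to 0.11). These values give no sign that the numbers pair the samples. They cannot exclude it, because a pairing with a small effect could leave r this low. The block for 24M kept the 24M pair apart. Under the block, Kcnj9, Arc, Shank1, Gnai1 and Grk2 missed the adjusted p at 24M and Cnr1 passed it, and Rgs4 passed it at 29M.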
